A study of Homo sapiens with 6 samples.

Results

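The acute-phase serum amyloid A genes SAA1 and SAA2 and 8 further inflammatory genes (CCL2, CXCL1, IL1A, IL1B, IL6, LIF, TNFAIP3 and PTGS2) were followed in poly(A) RNA of KYSE70, a cell line from a human squamous carcinoma of the esophagus. Members were chosen by gene name, with earlier results of these data known, and all 10 were found among the 48644 genes of the deposited expression table. Counts of members set beside shares of all genes are therefore descriptions and not tests. Cells carried a doxycycline-inducible pLKO-Tet-On hairpin vector against TP63 (shTP63) or SOX2 (shSOX2), both transcription factors of squamous epithelium, and grew in RPMI1640 with fetal bovine serum. The induced groups were shTP63 cells and shSOX2 cells after 4 days of doxycycline at 50 ng/ml (day 4, n = 2 libraries each). The uninduced groups were shTP63 cells and shSOX2 cells without doxycycline (day 0, n = 1 library each). A doxycycline-treated line without a hairpin against either factor was not analysed here, so hairpin and doxycycline effects cannot be told apart. The labels do not say whether a line is 1 clone or a pool, nor that libraries came from separate cultures, so each p-value reflects the spread among these libraries alone, which may be technical. The numbers 1 and 2 in the titles were taken as replicates, but they could stand for different hairpins. Both day 0 libraries carry the number 2. If the numbers stand for hairpins, induced library 1 of each line has no day 0 library of its own hairpin. An induced pair would then not be a pair of replicates. Values of an induced pair are given with library 2 before library 1.

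Interleukin-1 and related signals activate the transcription factor NF-kB, which switches on chemokine, cytokine and PTGS2 genes as well as its own inhibitors, among them TNFAIP3. Cytokines of the interleukin-6 family, including LIF, signal through the shared receptor IL6ST to STAT3. NF-kB, STAT3 and C/EBP factors together drive serum amyloid A, a lipoprotein-associated acute-phase protein made mostly in liver but also in epithelia. Squamous epithelial cells are a known source of interleukin-1, CXCL1 and other chemokines.

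The deposited values were read as log2(RPKM + 1), that is, reads scaled to gene length and library size (RPKM) on a log scale, quantile-normalized between libraries. On this scale a difference of 1 is close to 2-fold for well expressed genes and understates the change of low ones. Counts of genes at least 2-fold apart use a difference of 1 on this scale throughout. They therefore miss some low genes that are 2-fold apart in linear RPKM. Read depth is unknown, since the table holds no counts. The uninduced shTP63 library stood apart from the rest, with 16167 genes above 0 and no value between 0 and 0.143, against 21530 to 23509 genes in the other 5 libraries. It is the only day 0 library of its line, so every shTP63 response rests on it. As a check of the hairpins, TP63 stood at 2.26 and 2.11 in induced shTP63 cells and 3.99 in uninduced shTP63 cells. The limma adjusted p of that change was 0.131. SOX2 stood at 5.65 and 4.67 in induced shSOX2 cells and 6.25 in uninduced shSOX2 cells (adjusted p = 0.469). In the shTP63 line SOX2 stood at 5.55 and 5.41 after induction and 5.69 before it, so induced shSOX2 library 2 had no less SOX2 than the induced libraries without a SOX2 hairpin. Squamous markers were present, with all 10 past the expression filter. Their summed level was 2536 and 1110 RPKM in induced shTP63 cells against 3003 in uninduced shTP63 cells, and 718 and 1148 in induced shSOX2 cells against 1885 in uninduced shSOX2 cells, so it was lower in every induced library than in the day 0 library of its line. By contrast, leukocyte markers summed to at most 0.513 linear RPKM, endothelial markers to at most 0.829 and hepatocyte markers to at most 0.0779 in any library. The summed fibroblast markers were higher in all induced libraries (93 and 58.8 RPKM in shTP63, 29.6 and 158 in shSOX2) than in the uninduced ones (5.27 in shTP63 and 10.3 in shSOX2). COL3A1 carried most of that sum, while COL1A2, DCN and LUM were at or below 0.029 log2 everywhere. The part of these squamous and fibroblast genes in the results was not tested. In bulk RNA, fewer cells of a type and less RNA per cell cannot be told apart.

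SAA1 and SAA2 encode nearly the same protein. Their coding sequences are shown from base 210 to the stop at base 369, the part that holds most of the bases that differ. They come from GENCODE release 29 (GRCh38, chromosome 11, coding strand, the first-numbered transcript of each gene), and capitals mark the bases that differ between them.
SAA1: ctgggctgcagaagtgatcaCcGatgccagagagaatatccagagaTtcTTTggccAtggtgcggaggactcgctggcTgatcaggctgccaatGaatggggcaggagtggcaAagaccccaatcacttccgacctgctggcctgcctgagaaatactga
SAA2: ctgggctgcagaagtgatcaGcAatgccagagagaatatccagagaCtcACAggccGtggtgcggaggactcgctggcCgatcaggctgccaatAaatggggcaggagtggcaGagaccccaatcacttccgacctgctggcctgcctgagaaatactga
The whole coding sequences were 369 bases long and differed at 11 of them, 10 in the stretch shown, an identity of 97%, with an identical run of 186 bases. Of all 50-base words in SAA1 transcripts, 46.6% also occur in SAA2 transcripts and 19.4% in the SAA2-SAA4 readthrough gene, which joins SAA2 to its neighbour SAA4. The sources used here do not say how the authors' counting shared such reads, so the split between these 3 genes is uncertain.

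Promoters are shown for CXCL1 and TNFAIP3, textbook NF-kB targets that were both highest in the uninduced shTP63 library, and for IL1A, whose window held no NF-kB match. RefSeq promoter sequences (GRCh38.p14, 250 bases before to 50 after the gene start, 5′ to 3′ on the gene's strand) were held for 6 of the 10 members, and those of SAA1, SAA2, CCL2 and LIF were not used here. Capitals mark matches on either strand to the NF-kB consensus in CXCL1 (chr4:73869143-73869442, plus strand) and TNFAIP3 (chr6:137867009-137867308, plus strand), and to the AP-1 motif TGANTCA in IL1A (chr2:112784444-112784743, minus strand).
CXCL1: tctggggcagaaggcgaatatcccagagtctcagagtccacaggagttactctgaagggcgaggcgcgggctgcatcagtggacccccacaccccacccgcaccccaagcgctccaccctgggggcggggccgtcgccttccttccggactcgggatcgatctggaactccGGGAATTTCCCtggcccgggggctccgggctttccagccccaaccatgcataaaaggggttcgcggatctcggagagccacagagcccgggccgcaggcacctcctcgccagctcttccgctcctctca
TNFAIP3: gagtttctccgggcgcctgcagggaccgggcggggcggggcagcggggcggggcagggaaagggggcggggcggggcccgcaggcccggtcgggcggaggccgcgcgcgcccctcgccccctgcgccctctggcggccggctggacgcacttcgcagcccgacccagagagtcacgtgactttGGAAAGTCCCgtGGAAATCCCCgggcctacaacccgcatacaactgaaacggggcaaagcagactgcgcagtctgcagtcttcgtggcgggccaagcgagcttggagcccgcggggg
IL1A: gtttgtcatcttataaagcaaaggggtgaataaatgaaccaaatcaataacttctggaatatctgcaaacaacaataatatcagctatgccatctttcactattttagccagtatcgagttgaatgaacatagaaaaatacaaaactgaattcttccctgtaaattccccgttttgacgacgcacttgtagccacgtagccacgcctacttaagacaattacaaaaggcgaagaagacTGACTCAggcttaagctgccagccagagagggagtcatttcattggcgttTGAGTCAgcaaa
The NF-kB consensus was matched in CXCL1, where overlapping matches on the 2 strands begin 79 and 78 bases before the start. It was also matched in TNFAIP3, beginning 67 and 55 bases before the start, and in IL6, beginning 73 bases before it. Like IL1A, IL1B and PTGS2 held no match to this consensus in their windows. Over all 35116 promoters in the table, 5.91% held it. TGANTCA was matched in IL1A alone among the 6, and in 7.71% of all promoters. The C/EBP motif TTGCNNAA was matched in IL1B, IL6 and PTGS2, and in 10.5% of all promoters. Such matches are letters in a window and do not show binding.

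Across the 6 libraries the median level, as linear RPKM and hence per length, ordered the members from CXCL1 at 14.5 through SAA1 at 4.37, LIF at 2.79, PTGS2 at 2.46 and CCL2 at 2.31 to TNFAIP3 at 1.84, IL1A at 1.68 and IL1B at 1.60. SAA2 followed at 0.405 and IL6 at 0.007. From LIF down to IL1B neighbouring medians lay well inside each gene's own range over libraries, which was 0.552 to 6.38 RPKM for LIF and 0.572 to 4.23 RPKM for IL1B. Most of these genes were thus low in KYSE70, and small absolute changes make large ratios. With a filter of a mean of at least 1 RPKM over the 6 libraries, 8 of the 10 members entered the test among 10536 genes. SAA2 and IL6 did not.

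**Figure D1:**
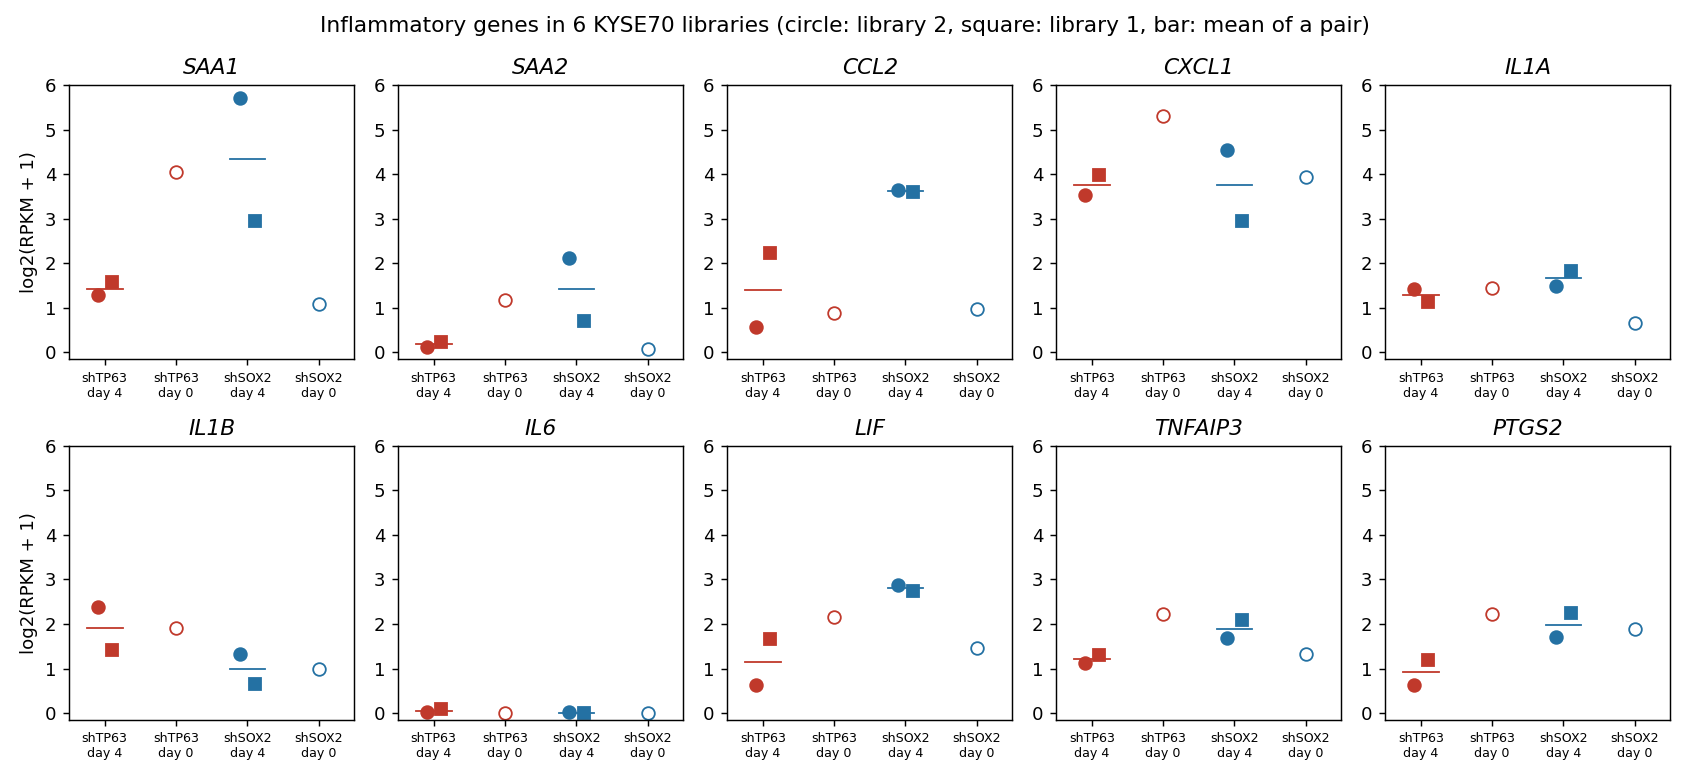
Deposited log2(RPKM + 1) of each member (vertical axis) in induced and uninduced shTP63 cells (red) and shSOX2 cells (blue), with filled symbols for day 4, open symbols for day 0 and a bar at the mean of each day 4 pair. SAA1, SAA2 and CCL2 are highest in induced shSOX2 library 2, CXCL1 and TNFAIP3 in uninduced shTP63 cells, and IL6 lies at or near 0 in every library.

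Among acute-phase genes, SAA1 stood at log2 values of 1.28 and 1.58 in induced shTP63 cells, against 4.06 in uninduced shTP63 cells. In shSOX2 cells it stood at 5.71 and 2.95 after induction, against 1.07 before it. Induced shTP63 cells were thus close to uninduced shSOX2 cells, while uninduced shTP63 cells lay between the induced shSOX2 libraries. The induced shSOX2 pair itself was 2.75 apart, and its higher library was number 2, the one with more SOX2 left. SAA2, with 0.131 and 0.240 in induced shTP63 cells, 1.18 in uninduced shTP63 cells, 2.12 and 0.704 in induced shSOX2 cells and 0.073 in uninduced shSOX2 cells, had the same order of libraries as SAA1. SAA4, which encodes a constitutive serum amyloid A, was listed at 0 in 4 libraries and reached at most 0.112, in induced shSOX2 cells.

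The readthrough gene SAA2-SAA4 was the gene most like SAA1 among those tested, with a Pearson r of 0.993 over the 6 libraries. It stood at 0.218 and 0.492 in induced shTP63 cells, 1.94 in uninduced shTP63 cells, 3.37 and 1.19 in induced shSOX2 cells and 0.239 in uninduced shSOX2 cells. Uninduced shSOX2 cells were the lowest library for SAA1, and induced shTP63 library 2 was the lowest for SAA2-SAA4. These 3 genes share sequence, so their likeness is no independent repeat of the SAA1 pattern. The next most like SAA1 were a gene with a clone name only at r = 0.984 and the peptidyl-prolyl isomerase gene FKBP2 at r = 0.972, and 49 tested genes had an r over 0.9. Such likeness over 6 libraries is a description only.

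**Figure D2:**
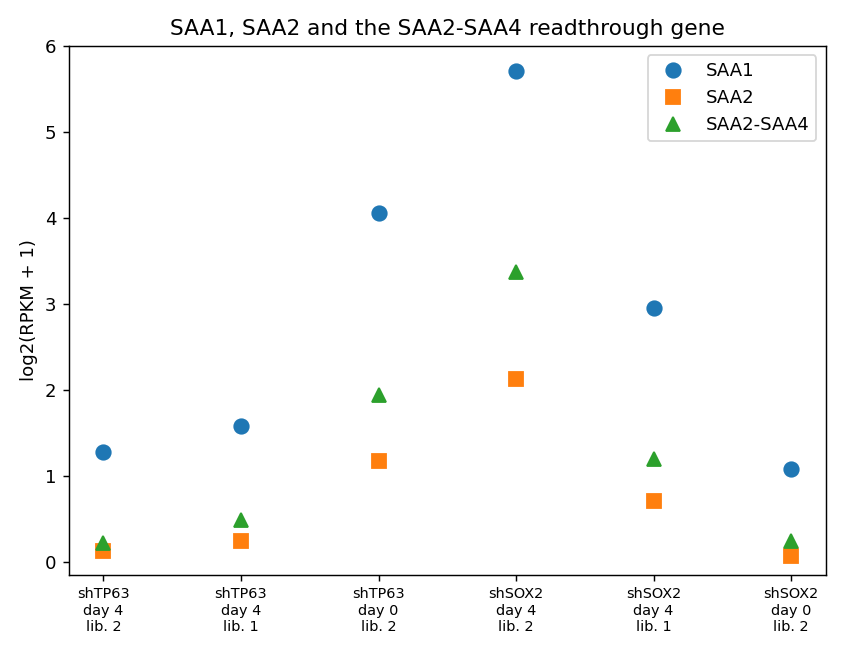
Deposited log2(RPKM + 1) (vertical axis) of SAA1, SAA2 and the readthrough gene SAA2-SAA4 in each of the 6 libraries (horizontal axis). All 3 are highest in induced shSOX2 library 2 and next highest in uninduced shTP63 cells, with SAA1 at 5.71 and 4.06.

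Among the chemokines, CCL2, which attracts monocytes through its receptor CCR2, stood at 0.579 and 2.22 in induced shTP63 cells and 0.875 in uninduced shTP63 cells. In shSOX2 cells it stood at 3.64 and 3.60 after induction and 0.981 before it. The induced shSOX2 libraries were both above all 4 other libraries, and the uninduced lines nearly coincided. The genes most like CCL2 over the 6 libraries were the selenoprotein gene SEPN1 at r = 0.993, the reticulocalbin gene RCN2 at r = 0.993 and PGAP2, a factor of GPI-anchor maturation, at r = 0.993, and 228 tested genes had an r over 0.9. CXCL1, a neutrophil attractant that acts through CXCR2, stood at 3.54 and 3.97 in induced shTP63 cells and 5.30 in uninduced shTP63 cells. It stood at 4.55 and 2.95 in induced shSOX2 cells and 3.93 in uninduced shSOX2 cells, so the induced shSOX2 pair spanned the day 0 value of its line and both induced shTP63 libraries.

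For interleukin-1, IL1A, an alarmin held in epithelial cells, stood at 1.41 and 1.14 in induced shTP63 cells and 1.43 in uninduced shTP63 cells, against 1.497 and 1.82 in induced shSOX2 cells and 0.666 in uninduced shSOX2 cells. Its lowest value was that of uninduced shSOX2 cells, and the other 5 libraries lay between 1.14 and 1.82. IL1B, which is secreted after cleavage by caspase-1, stood at 2.39 and 1.42 in induced shTP63 cells and 1.90 in uninduced shTP63 cells. It stood at 1.34 and 0.653 in induced shSOX2 cells and 0.991 in uninduced shSOX2 cells. All 3 shTP63 libraries were above all 3 shSOX2 libraries for IL1B, and within each line the day 0 value lay between the day 4 values.

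In the interleukin-6 family, IL6 was listed at 0 in both uninduced libraries and in induced shSOX2 library 1. It reached 0.023 in induced shSOX2 library 2 and 0.019 and 0.085 in induced shTP63 cells. These values are below the 0.143 that is the smallest value above 0 in the uninduced shTP63 library, so no difference in IL6 was detectable there. LIF stood at 0.634 and 1.66 in induced shTP63 cells and 2.15 in uninduced shTP63 cells, against 2.88 and 2.75 in induced shSOX2 cells and 1.46 in uninduced shSOX2 cells. Both induced shSOX2 libraries were above every other library.

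TNFAIP3, a ubiquitin-editing inhibitor of NF-kB signalling, stood at 1.13 and 1.29 in induced shTP63 cells and 2.22 in uninduced shTP63 cells. It stood at 1.67 and 2.10 in induced shSOX2 cells and 1.32 in uninduced shSOX2 cells. PTGS2, the inducible enzyme of prostaglandin synthesis, stood at 0.638 and 1.19 in induced shTP63 cells and 2.21 in uninduced shTP63 cells, against 1.70 and 2.24 in induced shSOX2 cells and 1.88 in uninduced shSOX2 cells. For both genes the induced shTP63 libraries were the lowest of the 6, though uninduced shSOX2 cells were barely higher for TNFAIP3.

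Before any doxycycline was given, uninduced shTP63 cells already had the higher value for most of these genes, though no gap passed the test. Of the 8 tested members 7 were higher in uninduced shTP63 cells than in uninduced shSOX2 cells, where 50.9% of all tested genes were. The day 0 gap, shTP63 minus shSOX2, was 2.98 ± 1.07 for SAA1 (limma SE, n = 1 library a side, with the spread taken from the day 4 pairs). It was 1.37 ± 0.71 for CXCL1, 0.91 ± 0.54 for IL1B, 0.90 ± 0.36 for TNFAIP3, 0.77 ± 0.35 for IL1A and 0.69 ± 0.50 for LIF. The gap was 0.34 ± 0.43 for PTGS2 and -0.11 ± 0.68 for CCL2. Outside the test, the gap was 1.10 for SAA2, and IL6 was listed at 0 on both sides.

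The median absolute day 0 gap over all tested genes was 0.29, and 99.9% of them had a smaller absolute gap than SAA1 and 98.3% a smaller one than CXCL1. For CCL2 that share was 19.8%. SAA1 and CXCL1 were the 2 members higher by at least 1 unit of log2(RPKM + 1) in uninduced shTP63 cells, against 1.98% of tested genes. By at least 0.5 unit 6 members were higher, against 12.1%. In linear RPKM, IL1A stood at 1.70 against 0.587, IL1B at 2.74 against 0.987 and TNFAIP3 at 3.65 against 1.49. The rule of 1 unit thus leaves out low members that were more than 2-fold apart in RPKM. Limma called 0 of the 8 members and 0.0% of 10536 genes, with adjusted p of 0.995 or 0.996 for each member. At an unadjusted p under 0.05 there were 2 members, SAA1 and TNFAIP3, and 4.75% of all tested genes. The uninduced shTP63 library is also the one with fewer genes above 0, and line and library cannot be told apart with 1 library a line.

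After induction the direction between the lines was the other way for SAA1, IL1A, LIF, TNFAIP3 and PTGS2. Both induced shTP63 libraries were below both induced shSOX2 libraries for 6 of the 8 members (SAA1, CCL2, IL1A, LIF, TNFAIP3 and PTGS2), against 26.6% of tested genes. IL1B was the 1 member with both shTP63 libraries higher, against 30.5% of tested genes, and CXCL1 overlapped. The log2 difference, induced shTP63 minus induced shSOX2, was -2.90 ± 0.76 for SAA1 (limma SE, n = 2 libraries a side, adjusted p = 0.106), -2.22 ± 0.48 for CCL2 (0.0854) and -1.67 ± 0.36 for LIF (0.0846). It was -1.06 ± 0.30 for PTGS2 (adjusted p = 0.122), -0.67 ± 0.26 for TNFAIP3 (0.184), -0.38 ± 0.25 for IL1A (0.376), 0.91 ± 0.38 for IL1B (0.207) and 0.01 ± 0.50 for CXCL1 (0.992), which median-ratio scaling put at -0.0386.

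Limma thus called 0 of the 8 members between the induced lines, where it called 0.759% of all tested genes. At an unadjusted p under 0.05 there were 6 members, against 23.0% of tested genes. The median difference of the 8 members was -0.87, against 0.05 over all tested genes. For SAA1 the difference was -4.27 without induced shSOX2 library 1 and -1.52 without library 2. For IL1A it was -0.22 without induced shSOX2 library 1 and -0.25 without induced shTP63 library 1. For IL1B it was 0.57 without induced shSOX2 library 1, and 0.43 without induced shTP63 library 2 but 1.39 without library 1. This comparison uses no day 0 library for its differences. Without induced shTP63 library 1, in which CCL2 and LIF were higher than in library 2, CCL2 was called at -3.04 (limma adjusted p = 0.00137) and LIF at -2.18 (0.0118). Without library 2 in its place, CCL2 was at -1.40 (0.115) and LIF at -1.16 (0.178). In either case the shTP63 side is 1 library, assumed to vary like the induced shSOX2 pair. Over the alternatives the adjusted p ranged from 0.00137 to 0.682 for CCL2 and from 0.0118 to 0.614 for LIF.

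**Figure D3:**
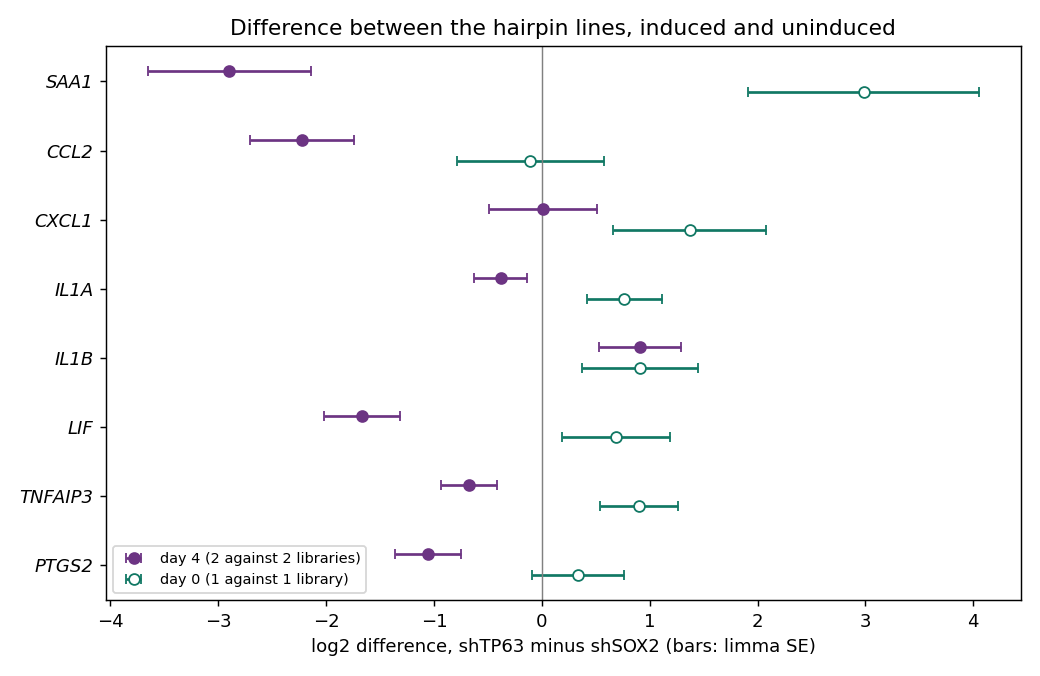
Log2 difference between the lines, shTP63 minus shSOX2 (horizontal axis), for the 8 tested members at day 4 (filled, 2 libraries against 2) and day 0 (open, 1 against 1), with limma standard errors as bars. SAA1 lies at -2.90 at day 4 and 2.98 at day 0, whereas IL1B lies at 0.91 at both.

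Against their own day 0 library, the members of the shTP63 line were mostly lower. SAA1, CXCL1, IL1A, LIF, TNFAIP3 and PTGS2 were lower in both induced shTP63 libraries, 6 of 8 members against 38.5% of tested genes, and 0 were higher in both, against 37.9%. The log2 change was -2.63 ± 0.93 for SAA1 (SE of the limma fit of 2 induced libraries and 1 uninduced library, adjusted p = 0.263), -1.54 ± 0.62 for CXCL1 (0.312), -1.30 ± 0.37 for PTGS2 (0.194), -1.01 ± 0.31 for TNFAIP3 (0.226) and -1.001 ± 0.44 for LIF (0.349). LIF was at -0.49 without library 2 and -1.51 without library 1. The difference was -0.16 ± 0.30 for IL1A (adjusted p = 0.851) and 0.52 ± 0.59 for CCL2 (0.733), with its induced pair on either side of day 0. IL1A was at -0.29 without library 2 and -0.0209 without library 1. IL1B differed by 0.00 ± 0.46 (0.999). By size, SAA1, CXCL1 and PTGS2 were lower by at least 1 unit of log2(RPKM + 1) in both induced libraries, against 2.82% of tested genes. By the same rule 0 members were higher, against 3.05%. TNFAIP3 missed the rule, though in linear RPKM it stood at 1.18 and 1.45 after induction against 3.65 before. With 1 induced library left, the rule asks less and more of all genes meet it. Without library 1, 5 members were at least 2-fold lower, against 6.23% of tested genes. Without library 2, 3 members were lower, against 5.27%, and 1 (CCL2, at 1.34) was higher, against 6.25%. With the other line's day 0 library as control 0 members were lower, against 3.76%. Limma called 0 of the 8 members, against 0.019% of tested genes, and 4 members had an unadjusted p under 0.05, against 14.6% of tested genes.

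In the shSOX2 line the members were mostly higher than in its own day 0 library. SAA1, CCL2, IL1A, LIF and TNFAIP3 were higher in both induced shSOX2 libraries, 5 of 8 members against 33.3% of tested genes, and 0 were lower in both, against 40.2%. CCL2 had the smallest p, at 2.64 ± 0.59 log2 (limma fit of 2 induced libraries and 1 uninduced library, adjusted p = 0.322). LIF had 1.36 ± 0.44 (adjusted p = 0.419), IL1A 0.99 ± 0.30 (0.405), SAA1 3.25 ± 0.93 (0.384) and TNFAIP3 0.57 ± 0.31 (0.556). The SAA1 value was 4.63 with library 2 alone and 1.88 with library 1 alone, and that of TNFAIP3 was 0.36 and 0.78. PTGS2 had 0.09 ± 0.37 (0.945), IL1B 0.00 ± 0.46 (0.998) and CXCL1 -0.19 ± 0.62 (0.928). By size, SAA1, CCL2 and LIF were higher by at least 1 unit of log2(RPKM + 1) in both, against 2.48% of tested genes. With the other line's day 0 library as control CCL2 alone met this rule, against 5.28%. IL1A missed the rule with the own day 0 library, though in linear RPKM it stood at 1.82 and 2.53 after induction against 0.587 before. Limma called 0 of the 8 members and 0.0% of tested genes, and 4 members had an unadjusted p under 0.05, against 10.4% of tested genes.

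When either induced shTP63 library was left out, CCL2 was called in the shSOX2 line, at an adjusted p of 0.0215 without library 2 and 0.0234 without library 1, with its log2 change unmoved at 2.64. Those libraries enter that contrast through the estimate of the spread and not through the change. For CCL2 the induced shTP63 pair was 1.64 apart and the induced shSOX2 pair 0.042. With either shTP63 library left out, each gene's own spread came from the shSOX2 pair alone. With the 3 shSOX2 libraries alone, which rest on that same pair, CCL2 was called as well (limma adjusted p = 0.0232). These calls are thus no independent repeats. The adjusted p of CCL2 over all alternatives ranged from 0.0215 to 0.833.

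Because each response is measured from a single day 0 library, each induced group was also set against the other line's uninduced cells. These comparisons share libraries with the ones above. Against uninduced shSOX2 cells, induced shTP63 cells differed by 0.36 for SAA1, -0.18 for CXCL1, -0.11 for TNFAIP3 and -0.31 for LIF. PTGS2 kept the larger part of its difference, at -0.97, and CCL2 was at 0.42. IL1A (0.61) and IL1B (0.91) lay further from 0 than with the own day 0 library. Against uninduced shTP63 cells, induced shSOX2 cells differed by 0.27 for SAA1, 0.23 for IL1A, -0.33 for TNFAIP3 and 0.67 for LIF, and by 2.75 for CCL2. There CXCL1 (-1.555), IL1B (-0.91) and PTGS2 (-0.25) lay further from 0 than with the own day 0 library. On average over the pair, 6 of 8 members were lower in induced shTP63 cells with the own day 0 library, against 49.9% of tested genes, and 4 of 8 with the other line's, against 50.0%. In induced shSOX2 cells 7 of 8 were higher with the own library, against 46.0%, among them IL1B at 0.004 and PTGS2 at 0.09, and 4 of 8 with the other line's, against 47.2%. CCL2 in the shSOX2 line (2.64 and 2.75) and PTGS2 in the shTP63 line (-1.30 and -0.97) kept their sign and most of their size with either control, but none of these passed the test. With the other line's control the SE was 0.59 for CCL2 (limma adjusted p = 0.102) and 0.37 for PTGS2 (0.236).

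**Figure D4:**
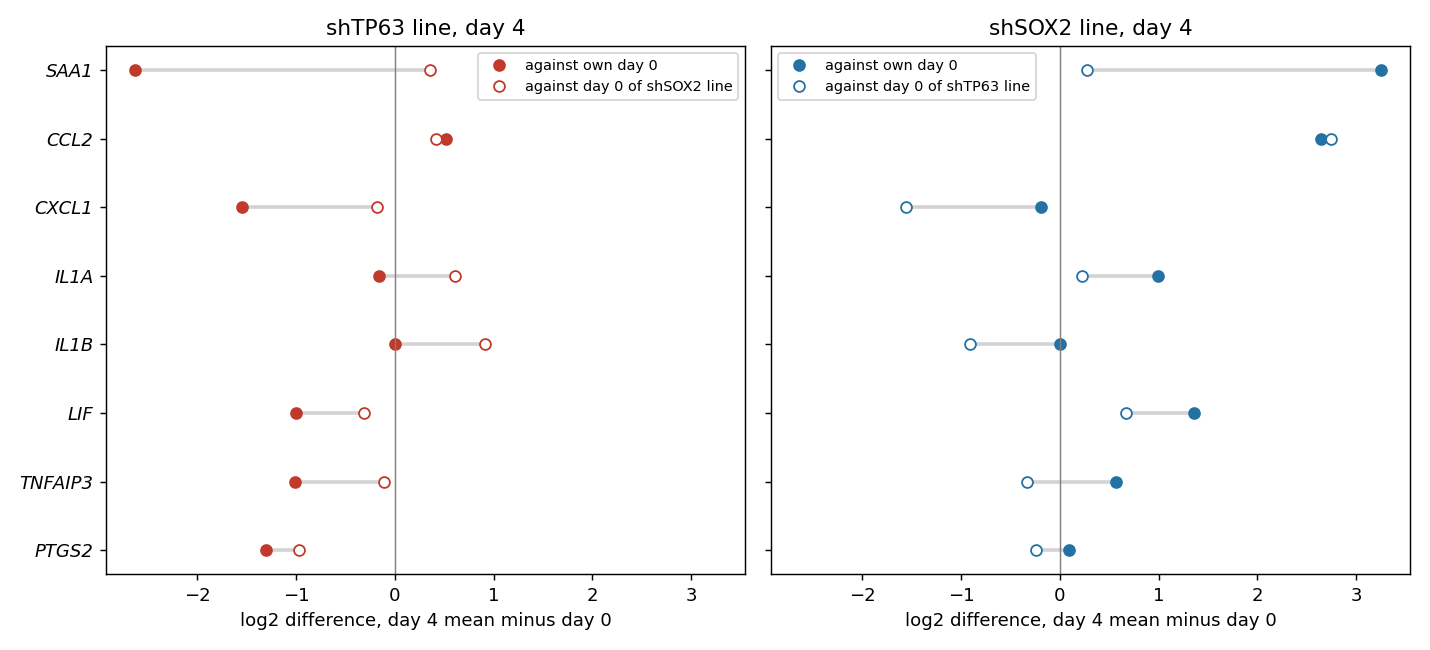
Log2 difference of the day 4 mean (horizontal axis) from the line's own day 0 library (filled) and from the other line's day 0 library (open), for shTP63 cells (left) and shSOX2 cells (right). SAA1 lies at -2.63 (own) and 0.36 (other) in the shTP63 line and at 3.25 and 0.27 in the shSOX2 line, and CCL2 at 2.64 and 2.75 in the shSOX2 line.

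The difference between the responses, shTP63 minus shSOX2, is by construction the day 4 difference between the lines less the day 0 gap. It was -5.88 ± 1.31 for SAA1, made of -2.90 at day 4 and 2.98 at day 0 (limma adjusted p = 0.995). For LIF it was -2.36 ± 0.62 and for CCL2 -2.12 ± 0.84. It was -1.57 ± 0.45 for TNFAIP3, -1.39 ± 0.53 for PTGS2, -1.36 ± 0.87 for CXCL1 and -1.15 ± 0.43 for IL1A, and 0.00 ± 0.66 for IL1B. CXCL1 was at -0.56 without induced shSOX2 library 2 and -2.16 without library 1, and CCL2 at -1.30 without induced shTP63 library 2 and -2.94 without library 1. All of these had an adjusted p of 0.995 or 1.00, and limma called 0 of the 8 members and 0.0% of tested genes. At an unadjusted p under 0.05 there were 6 members, against 4.55% of tested genes. SAA1, IL1A, LIF and TNFAIP3 were lower in both induced shTP63 libraries and higher in both induced shSOX2 libraries than in the day 0 library of their line, a pattern held by 6.16% of tested genes, and 0 members had the reverse pattern, against 8.13%.

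Among 32 other NF-kB factors and regulators 24 were tested, and limma called 0 in either response, 0 for the difference of the responses and 1 between the induced lines. That gene, NFKBIZ, which encodes an inducible nuclear IkB protein that promotes cytokine transcription, is named after its values were seen. NFKBIZ stood at 0.984 and 0.832 in induced shTP63 cells and 1.24 in uninduced shTP63 cells. It stood at 2.56 and 2.96 in induced shSOX2 cells and 3.10 in uninduced shSOX2 cells. The log2 difference between the induced lines was -1.85 ± 0.26 (limma SE, n = 2 each, adjusted p = 0.042), and the uninduced lines already differed by -1.87 ± 0.37 (adjusted p = 0.411). All shTP63 libraries were thus below all shSOX2 libraries, at both days. The call was lost with no filter (0.484), a pseudocount of 5 (0.0624), the replicate number as a block (0.0642), and without induced shSOX2 library 1 (0.174) or 2 (0.235), within a range of 0.029 to 0.484.

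In the shTP63 line 19 of the 24 NF-kB genes were lower in both induced libraries, against 38.5% of all tested genes, and 1 was higher in both, against 37.9%, with a median log2 change of -0.32 against 0.00 over all tested genes. In the shSOX2 line 11 were lower in both, against 40.2%, and 3 higher in both, against 33.3%, with a median of -0.14 against -0.05. Uninduced shTP63 cells were the higher day 0 library for 21 of the 24, against 50.9% of all tested genes. TRAF2, an adaptor of TNF receptors, had a log2 change of -1.19 ± 0.31 in the shTP63 line and NFKBIB, an IkB inhibitor, had -1.19 ± 0.35. Both were at least 2-fold lower in both libraries and neither passed the test (limma adjusted p = 0.176 and 0.207). Each was also lower in both induced shSOX2 libraries than at day 0, with changes of -0.47 ± 0.31 for TRAF2 (0.612) and -0.93 ± 0.35 for NFKBIB (0.444). RIPK1, a kinase of the TNF receptor complex, had -0.84 ± 0.28 in the shSOX2 line (0.426).

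Of 42 other cytokine and chemokine genes 41 were in the table and 6 were tested, the rest being below the filter. IL8, the gene of the neutrophil chemokine CXCL8, reached at most 0.424 log2, in uninduced shTP63 cells. Limma called 0 of the 6 in any comparison. TNFSF10, the ligand TRAIL, had a log2 change of 1.16 ± 0.33 in the shSOX2 line (adjusted p = 0.393) and 0.68 ± 0.33 in the shTP63 line (0.39). TNFSF15, a TNF family cytokine, had 0.97 ± 0.29 in the shSOX2 line (0.395) and IL18, an interleukin-1 family cytokine, had -0.74 ± 0.35 (0.516).

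Among 23 receptors and receptor-level regulators, for the members' ligands but also for TNF, which is not a member, 6 were tested, with 0 called. In the shSOX2 line 5 of the 6 were higher in both induced libraries, against 33.3% of all tested genes, with a median log2 change of 0.56 against -0.05 over all tested genes. TNFRSF1A, the main TNF receptor, stood at 4.21 and 4.35 in induced shTP63 cells and 3.73 in uninduced shTP63 cells, against 5.29 and 5.35 in induced shSOX2 cells and 3.87 in uninduced shSOX2 cells. Its log2 change was 1.45 ± 0.33 in the shSOX2 line (limma adjusted p = 0.326) and 0.55 ± 0.33 in the shTP63 line (0.491). IL1RAP, the coreceptor of interleukin-1, stood at 1.04 and 1.87 in induced shTP63 cells and 1.68 in uninduced shTP63 cells, against 2.96 and 2.65 in induced shSOX2 cells and 1.66 in uninduced shSOX2 cells. The uninduced lines differed by 0.03 for IL1RAP and by -0.14 for TNFRSF1A, so like CCL2 both had nearly equal day 0 values. IL6ST, the shared receptor of interleukin-6 and LIF, had -0.75 ± 0.34 in the shTP63 line (0.355) and 0.43 ± 0.34 in the shSOX2 line (0.672).

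Of 29 STAT3 and acute-phase genes 10 were tested and 0 called, and 8 of the 10 were higher in both induced shTP63 libraries, against 37.9% of all tested genes. In the shSOX2 line 6 of the 10 were higher in both, against 33.3%. The median log2 change was 0.39 in the shTP63 line and 0.34 in the shSOX2 line. SOCS1, a feedback inhibitor of JAK kinases, had a log2 change of 1.05 ± 0.38 in the shTP63 line (limma adjusted p = 0.273), and PIM1, a kinase gene induced by STAT3, had 1.16 ± 0.43 in the shSOX2 line (0.44) and 0.85 ± 0.43 in the shTP63 line (0.407). IL4R, the interleukin-4 receptor gene, had -1.03 ± 0.36 in the shTP63 line (0.261), with a day 0 gap of 0.77. Of 16 genes of prostaglandin synthesis and breakdown 7 were tested and 0 called. PTGES3, a prostaglandin E synthase and cochaperone, had log2 changes of -0.80 ± 0.38 in the shTP63 line and -0.58 ± 0.38 in the shSOX2 line. In the same order, PLA2G4A, which releases arachidonic acid, had -0.61 ± 0.31 and -0.315 ± 0.31. PTGR1, which breaks prostaglandins down, had 0.45 ± 0.34 and 0.05 ± 0.34. All 11 listed RNA-binding regulators of cytokine mRNA were tested and 0 were called. Of these, ZFP36L1, which speeds decay of such mRNAs, had 0.82 ± 0.34 in the shTP63 line (0.33) and 0.75 ± 0.34 in the shSOX2 line (0.498). HNRNPD and RC3H1, both of which also promote mRNA decay, had -0.77 ± 0.40 and 0.51 ± 0.27 in the shTP63 line. Their changes in the shSOX2 line were -0.51 ± 0.40 and 0.15 ± 0.27.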

How the data were processed

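Poly(A) RNA of 6 KYSE70 libraries was fragmented, reverse transcribed with random primers and sequenced, per the labels' protocols, with no strand-specific step stated. Per the submitters' processing notes the genome build was hg19. The aligner, counter and gene models were not given in the sources used here. Deposited log2 values carry the name RPKM, yet read as log2(RPKM + 1), quantile-normalized by the authors, because all libraries share a maximum of 13.36 and nearly equal sums. Base 2 was set against base e with the lengths of 26795 genes. Linear values times median transcript length gave 0.151 to 0.156 of all reads for base 2, and an impossible 1.34 to 1.89 for base e. Base 2 leaves most reads unaccounted for, so it remains an assumption, on which the linear values and the filter rest. No further log was taken. Depth is unknown, and low values are imprecise.

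The filter kept the 10536 of 48644 genes whose linear RPKM averaged 1 or more over the 6 libraries. Limma 3.58.1 in R 4.3.3 was fitted on 4 group means with a mean-variance trend, 2 residual and 5.53 prior degrees of freedom, a two-sided test and Benjamini-Hochberg adjustment over all tested genes, calling a gene below an adjusted p of 0.05. Each uninduced group is 1 library, whose spread was taken from the induced pairs. The script was tested on simulated data with less spread than the day 4 pairs and larger changes than most members had. That run does not show how many real changes of the members' size would be found. Members, lists and tests were chosen with earlier results of these data known. All members are named, and from each other list the 3 tested genes with the smallest p in either response, plus the 3 most like SAA1 and CCL2. Alternatives changed filter, pseudocount, scaling, libraries, control, block and variance model. One was added after seeing the data. 0 per-sample columns were left out.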

Additional observations from a re-analysis of the deposited data

Results flagged for a closer look

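SAA1, SAA2, IL1A, LIF and TNFAIP3 were lower in both induced shTP63 libraries and higher in both induced shSOX2 libraries than in the day 0 library of their own line. The shTP63 response minus the shSOX2 response was -5.88 for SAA1, -2.36 for LIF, -1.57 for TNFAIP3 and -1.15 for IL1A on the log2 scale, and each of these 4 had a limma adjusted p of 0.995, so none passed the test of the difference. For SAA2 it was -2.33, and this difference was not tested, since SAA2 was below the filter. The day 0 gaps that enter these values were 2.98, 0.69, 0.90 and 0.77 for SAA1, LIF, TNFAIP3 and IL1A, and 1.10 for SAA2.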

How the results depend on the processing

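Limma called 0 of the 8 tested members in all 5 comparisons. In the shSOX2 line the count was 1 (CCL2) with the 3 libraries of the line alone, where 11 of 10536 genes were called. The count also moved in fits that left out a replicate. Such fits leave 1 library in an induced group, so their counts are not given here. Between the induced lines the count moved in such fits alone. In the other 3 comparisons it was 0 under every alternative. The 3 members at least 2-fold higher in both induced shSOX2 libraries became 1 with a mean RPKM of at least 5 (2 members tested), a pseudocount of 5, the other line's day 0 library or both day 0 libraries as control, and 3 to 4 without a replicate, while all genes past the rule in either direction were 365 as reported and 365 to 1104 without a replicate. The share of tested genes at least 2-fold higher in both induced shSOX2 libraries was 2.48% as reported. It was 3.8% with a mean RPKM of at least 5 and 0.598% with a pseudocount of 5. With the other line's control it was 5.28%, and with both 2.96%. The 3 members at least 2-fold lower in both induced shTP63 libraries became 0 with the other line's day 0 library or both as control. Of tested genes 3.76% and 2.41% were lower with these controls, against 2.82% as reported. Without a replicate 3 to 5 members passed in either direction, and 618 to 1291 genes, against 618 as reported. With 1 induced library of the line left, only that library has to meet the rule, so these counts are not of the same rule. Without the uninduced shTP63 library, an alternative chosen after seeing the data, the shSOX2 count was 3 and 0 members were called in the 2 comparisons that remain.

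Of the member differences recomputed, 25 changed sign, 5 newly passed the threshold and 444 kept direction and side. With the other line's day 0 library as control, SAA1 (0.36) and IL1A (0.61) did so in the shTP63 line, and IL1B (-0.91), TNFAIP3 (-0.33) and PTGS2 (-0.25) in the shSOX2 line. With both day 0 libraries as control IL1A was at 0.23 in the shTP63 line, and IL1B at -0.45 and PTGS2 at -0.0771 in the shSOX2 line. With the replicate number as a block CXCL1 was at 0.11 and PTGS2 at -0.18 in the shSOX2 line, and the block called 0 members and, between the induced lines, 18 genes. The number pairs no cultures by the labels, and deviations of same-numbered day 4 libraries correlated at -0.074. A pseudocount of 0.5 put IL1B at -0.0127 (shSOX2 line), -0.0114 (shTP63 line) and 0.0013 for the difference of responses, and a pseudocount of 5 put that difference at 0.0109 and CXCL1 between the induced lines at -0.0282, and median-ratio scaling put CXCL1 there at -0.0386. Leaving out a day 4 library gave ranges that cross 0 for CCL2 in the shTP63 line (-0.30 to 1.34), CXCL1 in the shSOX2 line (-0.98 to 0.61) and between the induced lines (-0.79 to 0.81), IL1B in shSOX2 cells (-0.34 to 0.35), in shTP63 cells (-0.48 to 0.48) and in the response difference (-0.48 to 0.48), and PTGS2 in the shSOX2 line (-0.18 to 0.36). The number of genes called over all alternatives ranged from 0 to 1090 in the shSOX2 line (0 as reported), 0 to 291 in the shTP63 line (2), 0 to 324 between induced lines (80), 0 to 1193 for the difference of responses (0) and 0 to 1211 between uninduced lines (0), the highest of the first and of the last 2 with no filter. No cause was tested.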
